A study of Arabidopsis thaliana with 42 samples.

Results

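NLP2 and NLP1 are paralogous transcription factors of Arabidopsis thaliana, and their effects on the leaf-cell transcriptome were compared directly here. The 4 libraries titled NLP2-1, NLP2-2, NLP1-1 and NLP1-2 were taken, of 42 libraries in the series, of which 24 came from protoplasts. Each library holds total RNA from mesophyll protoplasts (leaf cells freed of their wall, which take up plasmid DNA) of Col-0, the wild type, from plants kept 3 to 4 weeks on soil, in which NLP1 or NLP2 was expressed transiently. Each group has 2 libraries, and no control library entered the comparison. The NLP3, NLP7 and NLP9 libraries, of the same kind of protoplasts, entered the fit to help estimate the spread between replicates, 10 libraries in all. Control libraries, shared per their title by NLP1, 2, 3, 5, 8 and 9, are given for orientation. The 2 differed outside the NLP loci by no more than counting noise, so their 2 values may not be independent measurements. The promoter, plasmid dose and incubation time were not given in the sources used here, nor whether replicates were separate protoplast preparations, so p-values measure only the spread between replicate libraries, which may be technical.

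NIN-like proteins carry nitrate signalling in plants: when nitrate is supplied they accumulate in the nucleus and switch on genes for nitrate uptake, reduction and the reductant that the reduction consumes. They share an amino-terminal nitrate-responsive region, an RWP-RK domain that binds DNA and a carboxy-terminal PB1 domain through which they associate. NLP7 is the best studied of them in Arabidopsis, and NLP2 is a further activator of nitrate assimilation in that species.

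The coding sequences of the pair show how close the paralogues are. In RefSeq (TAIR10.1), NLP1 (AT2G17150) lies at chr2:7466687-7471586 on the minus strand with a coding length of 2730 bases. NLP2 (AT4G35270) lies at chr4:16777264-16782054 on the minus strand with a coding length of 2892 bases. Of 2700 aligned bases 2180 were identical, which is 80.7%. The longest uninterrupted identical run was 44 bases, and it lies just before the codons for the RWP-RK motif that gives the domain its name. The stretch is shown from 15 bases before that run to the end of the motif codons, 102 bases of which 91 were identical, with the identical run in capitals.
NLP1: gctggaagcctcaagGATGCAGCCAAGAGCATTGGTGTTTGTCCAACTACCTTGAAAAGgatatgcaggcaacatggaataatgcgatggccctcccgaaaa
NLP2: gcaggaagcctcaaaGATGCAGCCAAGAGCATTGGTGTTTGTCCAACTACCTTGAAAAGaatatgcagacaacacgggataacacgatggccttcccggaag
The coding sequences shared 34 stretches of 30 bases, overlapping ones counted separately, and 0 of 50 bases, so every stretch of 50 coding bases differs between them.

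Transcripts of the introduced NLP were checked first, as CPM, counts over the library total in M (megacounts). The NLP1 locus stood at 9292 and 8601 CPM in the NLP1 libraries and at 19.5 and 17.96 CPM in the NLP2 libraries. The NLP2 locus stood at 59980 and 52470 CPM in the NLP2 libraries and at 14.2 and 15.9 CPM in the NLP1 libraries. Both labels therefore matched the most abundant NLP of their libraries. The control libraries had 20.5 and 9.85 CPM at the NLP1 locus and 17.42 and 4.24 CPM at the NLP2 locus. The means were 8946 ± 489 CPM (SD, n = 2) for NLP1 and 56220 ± 5310 CPM (SD, n = 2) for NLP2, a ratio of 6.28. NLP2 took 6.00 and 5.25% of all gene counts in its libraries, and NLP1 took 0.929 and 0.860% in its own. The identity of the NLP and the level of its transcript therefore change together in every result that follows, and cannot be told apart in these 4 libraries.

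**Figure D1:**
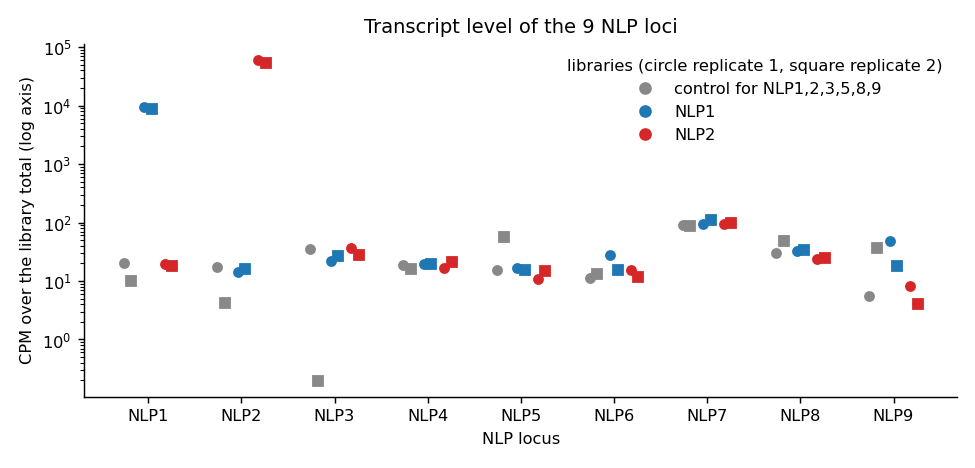
Transcript level of each of the 9 NLP loci (CPM over the library total, log axis) in the control, NLP1 and NLP2 libraries, 1 point per library. NLP1 stood at 8601 and 9292 CPM in its libraries and NLP2 between 52470 and 59980 CPM in its own, while the introduced locus of each pair stayed under 20 CPM in the libraries of the other.

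Gene counts came to 11.9 and 20.6 M in the NLP1 libraries and to 9.24 M in each NLP2 library, so that a count of 0 allows up to 0.142 to 0.346 CPM per library, for counting error only. Loci with any count numbered 21708 and 22505 in NLP1 and 24251 and 22822 in NLP2, more in NLP2 despite fewer counts. The part of this in the differences at low-level loci was not tested. Alignments that were not unique came to 40.7 and 19.7% of all counts, unassigned ones included, in NLP1 and to 58.2 and 58.4% in NLP2. Counts of chloroplast and mitochondrial loci took 0.835 and 0.240% in NLP1 and 3.35 and 2.87% in NLP2. These shares move with the groups, and their part in the results was not tested beyond leaving out the organellar loci. Mesophyll markers (CAB3, RBCS1A, LHCB2.1, CA1) summed to 1201 to 1431 CPM in the 4 libraries, and 1 of 4 differed, CA1. Root markers (CASP1, EXPA7) were at 0 counts in 3 libraries and summed to 0.230 CPM in the fourth, and the epidermal PDF1 and ATML1, both under the filter, were at 0 and at 0.247 and 0.285 CPM in NLP1 and at 0.344 and 0.115 and at 0.574 and 0.461 CPM in NLP2. The epidermal LTP1, at 44.6 and 42.9 CPM in NLP1 and 24.9 and 22.8 CPM in NLP2, and the vascular AHA3, at 18.9 and 20.8 against 10.7 and 15.9 CPM, were lower in NLP2. The other 4 vascular markers and the 3 guard cell markers tested were not called by edgeR, with 0 guard cell markers at an unadjusted p under 0.05 and 0 called by DESeq2. Guard cell markers summed to 246 and 294 CPM in NLP1 and to 313 in each NLP2 library, nearly all of it TGG1. The groups of TGG1 did not overlap (log2 fold change 0.22 ± 0.11 SE). The absence of guard cell calls did not hold without NLP1 replicate 2. In bulk RNA, fewer cells of a type and less RNA per cell cannot be told apart.

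The transcriptomes of the paralogues differed widely, and the large differences ran mostly 1 way. Of 16934 loci tested, without the 9 NLP loci, 4794 were called at an adjusted p under 0.05 (28.3%; edgeR quasi-likelihood test, Benjamini-Hochberg). NLP2 was higher at 2515 loci (14.9%) and lower at 2279 (13.5%). At a log2 fold change of at least 1, NLP2 was higher at 1129 loci (6.67%) and lower at 383 (2.26%). At a log2 fold change of at least 2 the counts were 586 and 15, and at 4 they were 171 and 0. The median log2 fold change was 0.87 among loci higher in NLP2, -0.59 among loci lower in NLP2 and -0.01 over all loci tested. The NLP2 and NLP1 libraries did not overlap at 10463 loci (61.8%). At 35 of the loci higher in NLP2 (0.207% of loci tested) both NLP1 libraries had 0 counts, and 7 of these reached 5 CPM in NLP2. Of the lower loci 0 had 0 counts in both NLP2 libraries. A locus with 0 counts in 1 group passes the filter only through the other, so these counts are a description only.

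With all 24 protoplast libraries estimating the spread, including 4 that hold another NLP than their label names, the counts fell to 1467 higher and 1222 lower. This fit and the next also include the control pair that may not be independent, which can narrow the estimated spread. With those 4 libraries left out, which was chosen after seeing the data, they were 2723 and 2402.

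**Figure D2:**
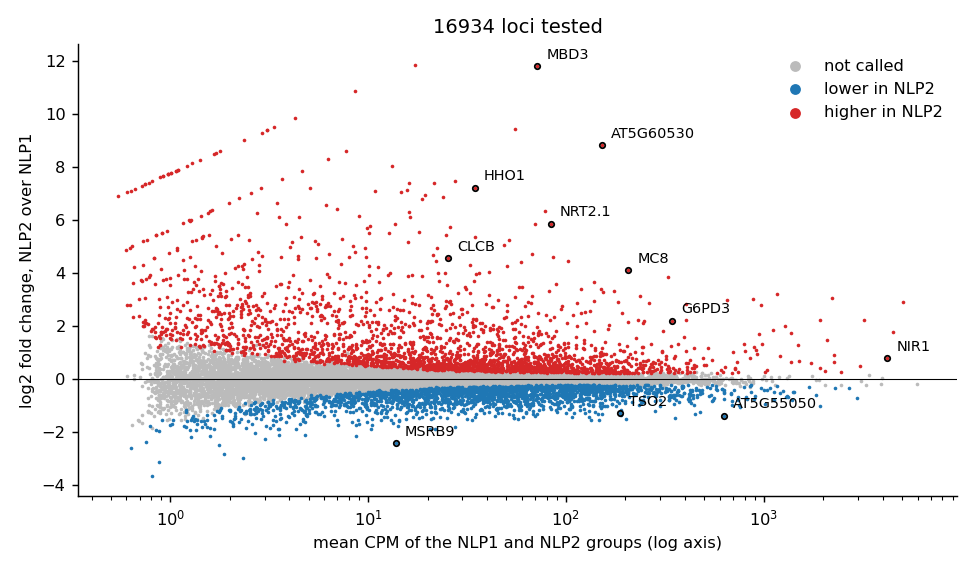
Log2 fold change of NLP2 over NLP1 against the mean CPM of both groups (log axis) for the 16934 loci tested, red where NLP2 was higher, blue where it was lower and grey where not called. The red cloud reaches a log2 fold change of 11.88 and the blue one -3.65. The diagonal rows of points at low CPM are loci with 0 or few counts in NLP1, whose fitted fold change depends on the prior count.

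Several genes were almost silent with NLP1 and well expressed with NLP2. MBD3, which encodes a methyl-CpG-binding domain protein, had 1 count over both NLP1 libraries (0.0824 and 0 CPM, here and below scaled by TMM) and stood at 153 and 134 CPM in NLP2. The ratio was 4770, with an exact 95% Poisson interval of 856.1 to 188400 that covers counting error only. AT4G25160, a U-box protein kinase gene, had 0 counts in both NLP1 libraries and 32.6 and 36.6 CPM in NLP2, at least 383-fold higher against 3 counts over the NLP1 group. QWRF7, which encodes a QWRF motif protein, rose from 0.247 and 0.0948 CPM to 126 and 95.4 CPM (log2 fold change 9.44 ± 0.27 SE). These genes and the others named for the size or adjusted p of their difference were chosen among loci whose groups do not overlap.

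Other genes with 0 NLP1 counts reached lower levels. The cytochrome P450 gene AT5G08250 stood at 17.0 and 17.5 CPM in NLP2 (at least 191-fold higher). NAS2, which encodes a nicotianamine synthase that makes a metal chelator, stood at 6.54 and 5.77 CPM (at least 68.2-fold). The methyltransferase gene AT1G68040 (10.6 and 6.46 CPM), the tyrosine transaminase family gene AT4G23590 (8.38 and 5.07 CPM), the haloacid dehalogenase-like gene AT2G36550 (5.40 and 6.92 CPM) and AT5G54045 (6.77 and 4.84 CPM) had bounds of 64.4 to 94.3-fold. The glycosyl hydrolase gene AT1G33220 and the leucine-rich repeat kinase gene AT5G49780 had 1 NLP1 count each and stood at 12.3 to 16.5 CPM in NLP2. The call on AT5G49780 was lost with all 24 protoplast libraries (adjusted p = 0.0801).

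Genes with measurable levels in both groups were also among those with the smallest adjusted p-values, beside MBD3 (1.67e-18). AT5G60530, a late embryogenesis abundant-like gene, stood at 0.576 and 0.711 CPM with NLP1 and at 320 and 287 CPM with NLP2 (log2 fold change 8.82 ± 0.15, adjusted p = 4.47e-21). AT5G65530, a protein kinase gene, stood at 1.4 and 2.18 CPM against 167 and 142 CPM (6.35 ± 0.15). AT1G75730, of unknown function, stood at 6.18 and 7.25 CPM against 171 and 160 CPM (4.60 ± 0.11). The metacaspase gene MC8 stood at 20.7 and 23.99 CPM against 401 and 381 CPM (4.12 ± 0.11). Levels with other NLPs varied by gene: AT5G60530 was at 309 and 324 CPM with NLP9 but at 9.78 and 9.66 CPM with NLP7, whereas QWRF7 was at 637 and 571 CPM with NLP7 and at 54.0 and 63.9 CPM with NLP9. MC8 was at 50.1 and 53.2 CPM with NLP9 and at 25.0 and 27.9 CPM with NLP7, both under its NLP2 level.

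**Figure D3:**
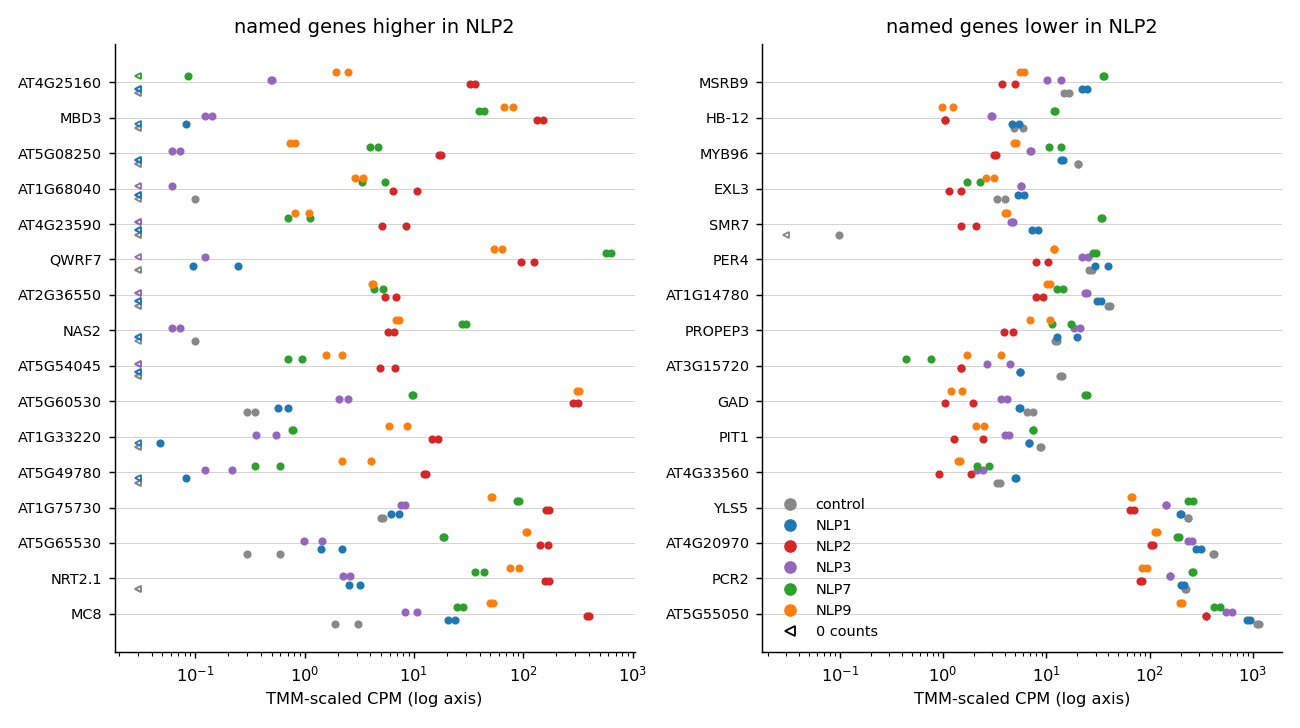
TMM-scaled CPM per library (log axis) of the genes named by rule, those higher in NLP2 on the left and those lower on the right, in the control, NLP1, NLP2, NLP3, NLP7 and NLP9 libraries. Open triangles at the left edge are libraries with 0 counts, and the fold between red (NLP2) and blue (NLP1) points is wider on the left than on the right.

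The genes lower in NLP2 differed by smaller folds, and most remained measurable. MSRB9, which encodes a methionine sulfoxide reductase that repairs oxidised proteins, stood at 22.2 and 24.6 CPM with NLP1 and at 4.94 and 3.69 CPM with NLP2 (log2 fold change -2.44 ± 0.19). MYB96, a regulator of abscisic acid responses and cuticular wax in Arabidopsis, stood at 14.5 and 13.8 CPM against 3.099 and 3.23 CPM (-2.15 ± 0.22). HB-12, a homeodomain-leucine zipper regulator, stood at 4.61 and 5.41 CPM against 1.03 and 1.04 CPM (-2.28 ± 0.32). The peroxidase gene PER4 stood at 39.5 and 29.4 CPM against 7.92 and 10.4 CPM, and PROPEP3, the precursor of an immune elicitor peptide, at 19.9 and 12.8 CPM against 4.71 and 3.92 CPM. In the control libraries these genes were nearer to NLP1 than to NLP2, for example 20.4 and 20.5 CPM for MYB96 and 27.6 and 25.7 CPM for PER4.

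The rest of the 12 lowest were EXL3, SMR7, AT1G14780 (a MAC/perforin domain gene), AT3G15720 (pectin lyase-like), the glutamate decarboxylase gene GAD, the RING-type gene PIT1 and the wound-responsive family gene AT4G33560, with log2 fold changes of -1.85 to -2.12. Abundant genes with tight replicates had the smallest adjusted p-values among the lower loci. AT5G55050, a GDSL-type lipase gene, stood at 888 and 937 CPM with NLP1 and at 349 and 350 CPM with NLP2 (-1.39 ± 0.09, adjusted p = 2.72e-11). YLS5 stood at 202 and 197 CPM against 65.0 and 70.5 CPM (-1.56 ± 0.09). The bHLH gene AT4G20970 and PCR2, a PLANT CADMIUM RESISTANCE gene, were lower by -1.51 ± 0.09 and -1.34 ± 0.08.

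Nitrate transporter genes split. Of 20 listed, 13 were tested, 4 were higher and 2 lower in NLP2 (46.2% called, against 28.3% of all loci tested). This list and those below were chosen with earlier results of these data known. Their shares beside the 28.3% are therefore a description only. The median log2 fold change was -0.16. The high-affinity transporter gene NRT2.1 stood at 3.21 and 2.56 CPM with NLP1, at 159 and 170 CPM with NLP2 and at 0 in both control libraries (5.87 ± 0.15, adjusted p = 4.41e-18). Its near-identical neighbour NRT2.2 was under the filter, so reads that fit both genes leave the split between them uncertain. NRT3.1, the partner protein that NRT2.1 needs for uptake, stood at 323 and 322 CPM against 706 and 733 CPM (1.16 ± 0.09). CLCB, a chloride channel family gene, stood at 2.47 and 1.75 CPM against 47.4 and 49.9 CPM (4.58 ± 0.18). NRT1.7, which loads nitrate into phloem, was higher by 0.41 ± 0.09. CLCA, the vacuolar nitrate exchanger, and the anion channel gene SLAH3 were lower by -0.59 ± 0.14 and -0.78 ± 0.14. The dual-affinity transporter and sensor NRT1.1 stood at 335 and 382 CPM against 297 and 345 CPM, groups that overlapped (-0.16 ± 0.09, adjusted p = 0.195). In the fit with all 24 protoplast libraries NRT2.1 and CLCB kept their calls and NRT3.1 (adjusted p = 0.157), NRT1.7 (0.341), CLCA (0.143) and SLAH3 (0.0865) lost theirs.

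Of the 5 reduction genes, 2 were higher in NLP2 (40% called, against 28.3% of all loci tested). The nitrate reductase gene NIA1 stood at 553 and 561 CPM with NLP1, close to the 534 and 524 CPM of the control libraries, and at 1390 and 1404 CPM with NLP2 (1.33 ± 0.08, adjusted p = 9.27e-12). The nitrite reductase gene NIR1 stood at 607 and 615 CPM in the control libraries, 3040 and 3105 CPM with NLP1 and 5489 and 5208 CPM with NLP2 (0.80 ± 0.08). UPM1, which makes the siroheme cofactor of nitrite reductase, was at 148 and 147 CPM in the control libraries, 708 and 668 CPM with NLP1 and 586 and 597 CPM with NLP2, and was not called (-0.22 ± 0.09, adjusted p = 0.0711). NIA2, the other nitrate reductase gene, and SIRB were not called either. The median of the 5 was -0.09. NIR1 was not called with all 24 protoplast libraries (adjusted p = 0.308).

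Genes for reductant supply, which feed electrons to nitrite reduction in plastids without photosynthesis, were higher in NLP2 at 8 of 10, lower at 2. All were thus called, against 28.3% of all loci tested. The median was 0.95 against -0.01 for all loci tested. G6PD3, a plastidial glucose-6-phosphate dehydrogenase gene, stood at 4.48 and 3.74 CPM in the control libraries, 129 and 117 CPM with NLP1 and 581 and 550 CPM with NLP2 (2.2 ± 0.09, adjusted p = 1.01e-14). RFNR2, a root-type ferredoxin reductase gene, stood at 146 and 128 CPM against 490 and 479 CPM (1.82 ± 0.08). The ferredoxin gene FD3 stood at 563 and 517 CPM against 1248 and 1254 CPM (1.21 ± 0.08). G6PD2, the phosphogluconate dehydrogenase gene PGD1 and RFNR1 were higher by 0.88 to 1.06. PGD3 stood at 110 and 107 CPM in the control libraries, 924 and 943 CPM with NLP1 and 1123 and 1085 CPM with NLP2, a log2 fold change of only 0.24 ± 0.08. PGD2 and PGL3 were lower by -0.80 ± 0.10 and -0.37 ± 0.10. With the 4 libraries of the contrast alone 6 were higher, with DESeq2 7, and with the NLP loci kept in library sizes 6. All 8 higher calls were lost with all 24 protoplast libraries, at adjusted p-values of 0.0746 to 0.827. The call on PGD3 was also lost without any 1 of the 4 libraries (up to 0.146), that on G6PD1 (0.71 ± 0.27) without NLP1 replicate 2 or NLP2 replicate 2 (up to 0.415), and that on PGL3 without NLP1 replicate 2 or NLP2 replicate 1 (up to 0.124) and with the 24 libraries (0.0565).

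**Figure D4:**
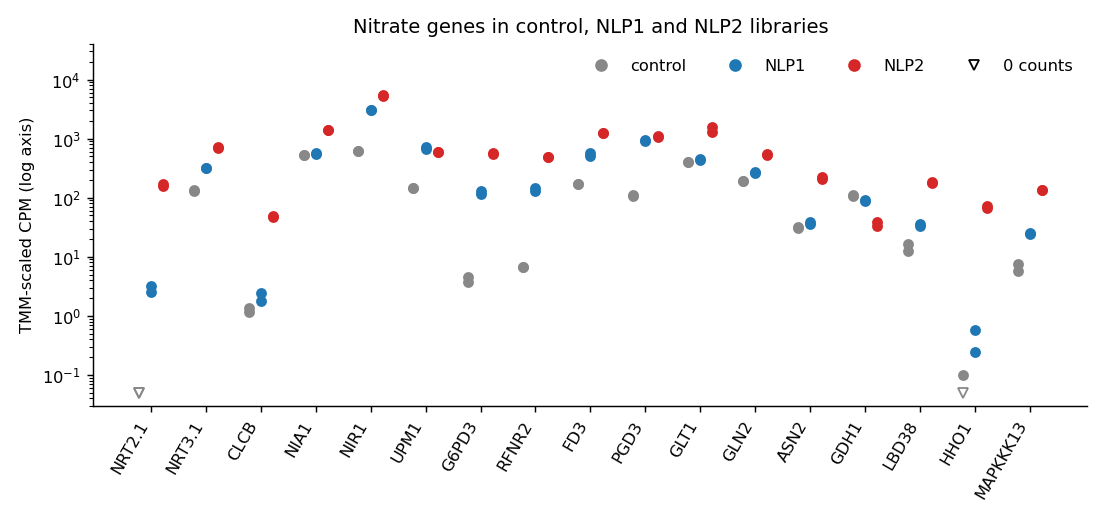
TMM-scaled CPM (log axis) of nitrate transport, reduction, reductant, ammonium assimilation and regulator genes in the control, NLP1 and NLP2 libraries, 1 point per library and open triangles for 0 counts. NLP2 points lie above NLP1 points for NRT2.1, CLCB, HHO1 and most others, close to them for PGD3, and below them for UPM1 and GDH1.

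Ammonium assimilation and transport genes were tested at 15 of 16, with a median of 0.18. NLP2 was higher at 5 and lower at 5 (66.7% called, against 28.3% of all loci tested). The asparagine synthetase gene ASN2 stood at 39.1 and 35.8 CPM with NLP1 and at 220 and 206 CPM with NLP2 (2.51 ± 0.09). GLT1, the NADH-dependent glutamate synthase gene, stood at 438 and 450 CPM against 1602 and 1293 CPM (1.71 ± 0.11). The cytosolic glutamine synthetase gene GLN1;2, the plastidial GLN2 and the ferredoxin-dependent glutamate synthase gene GLU1 were higher by 1.30 ± 0.09, 1.04 ± 0.08 and 0.75 ± 0.08. The glutamate dehydrogenase genes moved the other way, GDH1 from 91.4 and 87.4 CPM to 33.6 and 39.0 CPM (-1.30 ± 0.10) and GDH2 by -0.75 ± 0.08. GLN1;1, GLN1;3 and AMT2 were lower by -0.59, -0.38 and -0.39. With all 24 protoplast libraries the calls on GLN2 (adjusted p = 0.119), GLU1 (0.374), GLN1;3 (0.206) and AMT2 (0.145) were lost, without NLP2 replicate 1 those on GLN1;3 and AMT2 (0.379), and without NLP1 replicate 2 that on AMT2 (0.0611).

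Nitrate response regulators were tested at 22 of 24, with a median of 0.31. Among them 11 were higher and 6 lower (77.3% called, against 28.3% of all loci tested). HHO1, a repressor of the GARP family that acts on NRT2.1 in Arabidopsis, had the widest difference of the list. It stood at 0.247 and 0.569 CPM with NLP1 and at 66.6 and 71.0 CPM with NLP2 (7.23 ± 0.25, adjusted p = 6.54e-16), and at 4.27 and 5.97 CPM with NLP9 and 46.7 and 44.6 CPM with NLP7. LBD37, LBD38 and LBD39 are repressors of nitrate genes and were all higher in NLP2, LBD38 from 36.2 and 33.1 CPM to 180 and 187 CPM (2.41 ± 0.10), LBD37 by 1.33 ± 0.08 and LBD39 by 0.52 ± 0.14. The kinase genes MAPKKK13, MAPKKK14 and CIPK8 were higher by 2.43 ± 0.12, 1.41 ± 0.08 and 1.53 ± 0.08. GNC, a GATA factor gene, stood at 1.07 and 0.996 CPM against 4.02 and 3.34 CPM (1.84 ± 0.32).

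The BTB and TAZ domain genes BT1 and BT2, repressors of nitrate uptake genes, went opposite ways. BT1 stood at 103 and 75.7 CPM with NLP1 and at 193 and 188 CPM with NLP2 (1.1 ± 0.12), and BT2 at 151 and 121 CPM against 93.0 and 79.6 CPM (-0.65 ± 0.14). NRG2 and TGA4 were higher by 0.94 ± 0.18 and 0.33 ± 0.11. The calcium-dependent kinase genes CPK10, CPK30 and CPK32, CIPK23 and HHO3 were lower by -0.30 to -0.44. With all 24 protoplast libraries, LBD37 (adjusted p = 0.137), LBD39 (0.586), BT1 (0.216), BT2 (0.405), GNC (0.101), TGA4 (0.549), CIPK23 (0.213), CPK30 (0.0825) and HHO3 (0.306) were not called. LBD39 lost its call without NLP2 replicate 2, CPK10 without NLP2 replicate 1, HHO3 without replicate 1 of either group, CIPK23 without NLP1 replicate 1 or NLP2 replicate 2, CPK30 without NLP1 replicate 2 or NLP2 replicate 1, and TGA4 without any 1 library but NLP1 replicate 1, at adjusted p-values of 0.0576 to 0.244.

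In wild-type seedlings given KNO3 or KCl at 10 mM over 20 min, the authors' deposited table has an adjusted p for 13695 of the loci tested here, of which 450 (3.29%) were higher with KNO3 and 181 (1.32%) lower. Among loci higher in NLP2 than in NLP1, 151 of 1920 (7.86%) were higher with KNO3 in the authors' deposited table, and among loci lower in NLP2 46 of 2035 (2.26%). Where NLP2 was higher by a log2 fold change of at least 1, the share in the authors' deposited table was 88 of 648 (13.6%). The 151 are 33.6% of the 450. Loci higher in NLP2 include 106 of the 115 chloroplast and mitochondrial loci tested. The chloroplast locus ATCG00140 is among the 151, the 88 and the 20 largest KNO3 responses taken below. Shares without organellar loci were not computed, so their part in this overlap was not tested. Lower with KNO3 in the authors' deposited table were 14 of the loci higher in NLP2 and 72 (3.54%) of those lower in NLP2.

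Among the loci higher with KNO3 at an adjusted p under 0.05 in the authors' deposited table, the 20 largest responses included nitrate genes described above and others. Loci with no adjusted p there were not ranked, although HHO1 (5.37) and AT5G54045 (5.58) had larger log2 fold changes in the authors' deposited table. AT3G07350, a DUF506 gene with the largest response among the ranked loci (log2 fold change 4.60 in the authors' deposited table), stood at 21.9 and 19.5 CPM with NLP1 and at 278 and 239 CPM with NLP2 (3.65 ± 0.12). AT2G48080, an oxygenase family gene, stood at 3.21 and 1.85 CPM against 141 and 133 CPM (5.85 ± 0.16), and TPPB, a trehalose-6-phosphate phosphatase gene, at 0.329 and 0.474 CPM against 23.1 and 16.4 CPM (5.53 ± 0.37). BT2, next in the authors' deposited table with 4.18, was lower in NLP2 as given above. The gibberellin oxidase gene GA3OX1, with 3.22 in the authors' deposited table, stood at 2.72 and 5.07 CPM against 3.56 and 4.15 CPM, groups that overlapped (adjusted p = 0.885).

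Hormone genes changed in parts of each list. Of 10 abscisic acid genes tested (of 11), 4 were higher and 1 lower (50% called, against 28.3% of all loci tested). CYP707A2, which breaks down abscisic acid, stood at 1.57 and 1.66 CPM with NLP1 and at 71.5 and 64.5 CPM with NLP2 (5.38 ± 0.18), and its relative CYP707A3 at 4.20 and 4.22 CPM against 28.4 and 23.0 CPM (2.6 ± 0.19). The stress-response gene RD29A was higher by 1.30 ± 0.13. ABI2 was higher by 0.42 and HAI1, another phosphatase gene of the pathway, lower by -0.58, calls that were lost without NLP2 replicate 1 (adjusted p = 0.0639 and 0.113), and for HAI1 also without NLP1 replicate 2 (0.0589). Of 10 cytokinin genes tested (of 20), 4 were higher and 3 lower (70% called, against 28.3% of all loci tested). DESeq2 called 3 higher and 3 lower. The cytokinin oxidase gene CKX1 stood at 2.14 and 1.66 CPM against 10.5 and 9.11 CPM (2.39 ± 0.25), whereas its relatives CKX5 and CKX4 were lower by -1.04 ± 0.19 and -0.59 ± 0.10. The response regulator genes ARR7 and ARR8 and the synthesis gene IPT1 were higher and ARR4 lower. The calls on ARR8 and IPT1 were lost without NLP2 replicate 1 (adjusted p = 0.138 and 0.212), as was that on ARR4 (0.0582), and also lost without NLP1 replicate 1 for ARR8 (0.0965) and without NLP1 replicate 2 for IPT1 (0.324). With all 24 protoplast libraries the calls on ABI2, HAI1, CKX1, CKX4, ARR4, ARR7 and IPT1 were lost, at adjusted p-values of 0.0609 to 0.330.

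Jasmonate genes were lower at 9 of 17 tested (of 19) and higher at 4 (76.5% called, against 28.3% of all loci tested). The median was -0.25. With the 4 libraries of the contrast alone 7 were lower, and with DESeq2 8. The repressor gene JAZ8 stood at 56.2 and 48.1 CPM with NLP1 and at 23.1 and 23.0 CPM with NLP2 (-1.17 ± 0.12), and JAZ7, JAZ6 and JAZ1 were lower by -1.41 ± 0.30, -0.63 ± 0.09 and -0.59 ± 0.09. JAZ9 of the same family stood at 60.9 and 52.5 CPM against 162 and 177 CPM (1.58 ± 0.09), and JAZ10 was higher by 0.53 ± 0.09. The lipoxygenase genes were split, LOX3 lower by -0.80 ± 0.09 and LOX2 higher by 0.72 ± 0.09. JAZ2, JAZ5, AOC1 and OPR3 were lower and AOS higher by less than 0.34 in size, calls that were each lost without NLP1 replicate 1. Those on JAZ2 and JAZ5 were also lost without NLP2 replicate 2, and those on AOC1 and OPR3 without NLP1 replicate 2 or NLP2 replicate 1 (adjusted p = 0.0591 to 0.464 over these cases). With all 24 protoplast libraries the calls on LOX2 (0.255), LOX3 (0.0547), JAZ5 (0.103), AOC1 (0.244), OPR3 (0.0663) and AOS (0.550) were lost.

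Of 19 salicylic acid and immunity genes tested (of 23), 6 were lower in NLP2, 1 was higher and 12 were not called (36.8% called, against 28.3% of all loci tested), with a median of -0.40. FRK1, a kinase gene induced by bacterial flagellin, stood at 14.7 and 16.3 CPM with NLP1 and at 6.08 and 4.84 CPM with NLP2 (-1.51 ± 0.25). PBS3, a salicylic acid synthesis gene, stood at 40.2 and 33.1 CPM against 20.3 and 14.6 CPM (-1.05 ± 0.13), and CYP71B15, the last enzyme of camalexin synthesis, at 385 and 370 CPM against 218 and 221 CPM (-0.78 ± 0.08). WRKY40 and WRKY33 were lower by -0.71 ± 0.10 and -0.43 ± 0.09. Lower calls in this list numbered 5 with the 4 libraries of the contrast alone and 5 with DESeq2. The calls on WRKY33 and EDS5 (-0.51) were lost with all 24 protoplast libraries (adjusted p = 0.0782 and 0.0591). That on EDS5 was also lost without NLP1 replicate 1, NLP1 replicate 2 or NLP2 replicate 1 (0.0917 to 0.347), and that on PAD4 (0.99) without NLP1 replicate 1 or NLP2 replicate 2 (0.0653 and 0.0763).

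All 9 touch and rapid stress genes were lower in NLP2, by log2 fold changes of -0.43 to -0.87 with a median of -0.70. Over all loci tested 13.5% were lower. DESeq2 called 8 of the 9 lower. The calcium-binding gene TCH2 stood at 39.7 and 30.8 CPM against 20.9 and 19.0 CPM (-0.81 ± 0.14). ERF5, an ethylene response factor gene, stood at 224 and 204 CPM with NLP1, 125 and 126 CPM with NLP2 and 135 in both control libraries (-0.77 ± 0.08). Control levels varied by gene: TCH3 was at 183 and 174 CPM there, above its 158 and 149 CPM with NLP1. ZAT10 stood at 379 and 337 CPM against 250 and 248 CPM. The call on ZAT12 (-0.46 ± 0.12) was lost without NLP1 replicate 1, the library in which its 234 CPM stood above the 170 CPM of the other (adjusted p = 0.228), without NLP2 replicate 1 (0.0568) and with all 24 protoplast libraries (0.113).

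DNA damage and cell cycle genes were mostly lower in NLP2. Of 6 tested (of 7), 5 were lower in NLP2 and 1 higher (100% called, against 28.3% of all loci tested). The median was -1.15. TSO2, a ribonucleotide reductase subunit gene, stood at 11.8 and 13.8 CPM in the control libraries, 274 and 260 CPM with NLP1 and 107 and 113 CPM with NLP2 (-1.28 ± 0.09, adjusted p = 2.28e-10). SMR7, a cell cycle inhibitor gene, had 0 and 0.0984 CPM in the control libraries, 8.24 and 7.30 CPM with NLP1 and 2.07 and 1.499 CPM with NLP2 (-2.11 ± 0.24). CYCB1;1 and BRCA1 were lower by -1.03 ± 0.18 and -0.86 ± 0.19. PARP2, a poly(ADP-ribose) polymerase gene, was higher in NLP2, at 143 and 137 against 190 and 180 CPM (0.40 ± 0.08). With NLP7 TSO2 was at 791 and 914 CPM and with NLP9 at 157 and 138 CPM. The calls on BRCA1 (adjusted p = 0.116) and PARP2 (0.317) were lost with all 24 protoplast libraries.

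Protein folding genes changed in both directions, with 3 of 14 tested higher and 4 lower (50% called, against 28.3% of all loci tested). The endoplasmic reticulum chaperone genes BIP1, BIP2 and CNX1, and BZIP60, a regulator of their response, were lower in NLP2 by -0.55 to -0.69, BIP2 from 550 and 590 CPM to 330 and 377 CPM. The cytosolic chaperone genes HSP90.1 and HSP101 were higher by 0.65 ± 0.13 and 0.62 ± 0.12, and the heat shock factor gene HSFA2 by 0.40 ± 0.11. The other 7 were not called. HSFA2 lost its call without NLP1 replicate 1 (adjusted p = 0.0744) or NLP2 replicate 2 (0.246), and both HSFA2 (0.140) and HSP90.1 (0.0922) lost theirs with all 24 protoplast libraries. Over all gene lists together, 53 of 212 loci tested were higher and 60 lower (53.3% called, against 28.3% of all loci tested). The lists were chosen with earlier results of these data known.

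**Figure D5:**
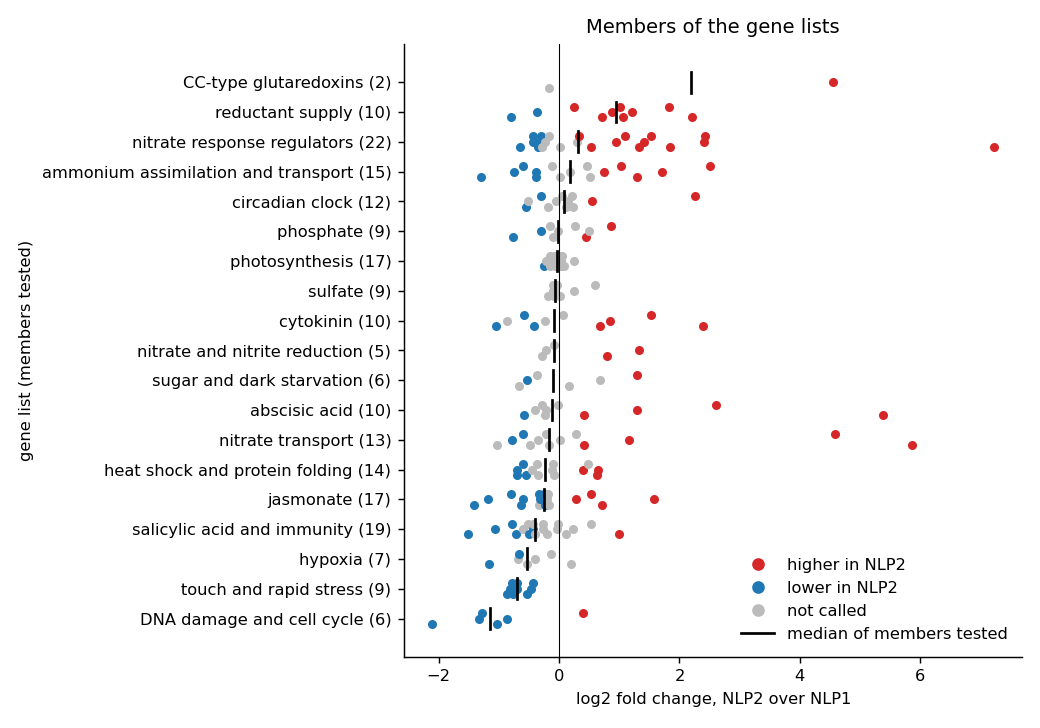
Log2 fold change of NLP2 over NLP1 for every tested member of each gene list (number tested in brackets), red where higher, blue where lower and grey where not called, with a bar at the median of the members tested. The reductant supply list lies mostly to the right, with a median of 0.95, and the touch and DNA damage lists mostly to the left, with medians of -0.70 and -1.15.

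The nitrate-responsive element described upstream of Arabidopsis NIR1 holds CTT and AAG with 10 bases between them, a pattern that reads the same on both strands. This pattern (CTTNNNNNNNNNNAAG) was searched in the 300 bases before each protein-coding gene's start in RefSeq (TAIR10.1). It was present in 9.54% of 2328 windows of loci higher in NLP2, 9.15% of 2252 windows of loci lower in NLP2, 9.25% of 11789 windows of loci not called and 9.71% of all 27443. Among loci higher by a log2 fold change of at least 2 it was present in 46 of 460, or 10%. These shares are close to each other. NRT2.1, HHO1 and NIR1 had no match in their window, although the element was described upstream of NIR1. The search thus misses the element of NIR1 itself, while 9.71% of all windows hold the pattern. It therefore cannot decide whether working elements differ between the sets, and their part in the differences was not tested. The windows of AT5G60530, which had 3 matches, 2 of them overlapping, and of MC8, which had 1, are shown as examples that hold the pattern. They are not typical of the widest differences, as MBD3, AT4G25160 and QWRF7 had 0 matches. The outer bases of each match are in capitals. The first window is chr5:24335859-24336158 and the second chr1:5614021-5614320, both on the minus strand.
AT5G60530: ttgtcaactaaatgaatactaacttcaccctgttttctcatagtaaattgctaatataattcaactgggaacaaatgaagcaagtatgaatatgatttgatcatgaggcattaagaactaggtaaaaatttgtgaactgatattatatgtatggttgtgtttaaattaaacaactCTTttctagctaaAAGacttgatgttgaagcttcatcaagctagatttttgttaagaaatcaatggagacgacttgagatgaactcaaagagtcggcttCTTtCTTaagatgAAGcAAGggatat
MC8: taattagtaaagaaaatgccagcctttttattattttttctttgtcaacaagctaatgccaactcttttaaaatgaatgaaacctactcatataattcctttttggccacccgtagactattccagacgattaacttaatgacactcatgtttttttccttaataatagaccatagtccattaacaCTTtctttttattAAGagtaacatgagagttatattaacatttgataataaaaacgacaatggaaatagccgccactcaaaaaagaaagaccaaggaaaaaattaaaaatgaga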

How the data were processed

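Read counts per locus were deposited by the authors as whole numbers for 37336 loci per library, not normalized. The submitters' processing notes name the build TAIR10, HTSeq 0.6.1, featureCounts, TopHat2 2.1.1 and FastQC 0.11.5; no strand setting was given, so overlapping and antisense genes are uncertain. The 5 total lines of each file and the 9 NLP loci were left out. Log2 fold changes and adjusted p-values for wild-type seedlings were taken from the authors' deposited table, whose direction was read as KNO3 over KCl from its name. NLP2 was tested against NLP1 with edgeR 4.0.16, quasi-likelihood F test (R 4.3.3, limma 3.58.1) with TMM, loci kept by filterByExpr on the 4 libraries, and the 10 libraries of NLP1, 2, 3, 7 and 9 (5 groups, 5 residual degrees of freedom) estimating the spread, with p-values adjusted by Benjamini-Hochberg over all 16934 loci. The common biological coefficient of variation was 0.0755. The SE is the size of the log2 fold change over the root of F. Alternatives used DESeq2 1.42.0, RLE size factors, other filters, other libraries and each library left out. Replicates of NLP1 and NLP2 differed by more than sampling noise, with a chi-square per locus of 9.12 for NLP1 and 3.73 for NLP2. The control pair had 1.01, near sampling noise alone, so whether its 2 libraries are independent is uncertain. Coding sequences were aligned with Biopython 1.88. Named genes were called loci with at least 5 CPM in a group and no overlap (the 12 highest, the 12 lowest and the next 4 by p each way), plus list members. The members and lists were chosen with earlier results of these data known. Values of some list members are not reported here. Symbols came from RefSeq (TAIR10.1), which paired 37051 loci.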

Additional observations from a re-analysis of the deposited data

Results flagged for a closer look

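Among the NLP loci that were not introduced, 3 values in the NLP1 libraries stood above the control libraries beyond counting error. The NLP6 locus stood at 28.3 CPM in NLP1 replicate 1, against 11.4 and 13.1 CPM in the control libraries. The NLP9 locus stood at 48.5 CPM in NLP1 replicate 1, against 5.65 and 37.1 CPM in the control libraries and 17.96 CPM in NLP1 replicate 2. The NLP7 locus stood at 112.2 CPM in NLP1 replicate 2, against 90.4 and 87.7 CPM. Each lay far under the 8601 CPM or more of NLP1 in the same libraries. The control libraries also differed from each other beyond counting error at some NLP loci, for example 34.6 and 0.197 CPM at NLP3 and 15.5 and 56.1 CPM at NLP5. Counting error thus does not cover the spread between libraries at these loci, and whether the NLP1 values are raised was not tested.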

How the results depend on the processing

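The loci higher and lower in NLP2 numbered 2515 and 2279. They fell to 1467 and 1222 with all 24 protoplast libraries estimating the spread, and stood at 2723 and 2402 without the 4 libraries that hold another NLP than their label names. Leaving out 1 library at a time gave 1823 to 2299 higher and 1402 to 1923 lower, the lowest of both without NLP2 replicate 1. With the replicate number as a block the counts were 2653 and 2429; deviations of same-numbered libraries correlated at 0.083, and nothing in the labels pairs them. DESeq2 gave 2229 and 1940. The 9 NLP loci kept in the library sizes gave 2354 and 2532, and the organellar loci left out 2485 and 2280. No locus called in the main comparison was called with the opposite sign in any of the 14 alternatives. LSU1, not called in the main comparison (log2 fold change 0.01), ranged from -0.47 without NLP2 replicate 2 (adjusted p = 0.0299) to 0.37 without NLP2 replicate 1; the cause was not tested. Of the 32 genes named by rule, 1 lost its call in 1 alternative, over 433 pairs of gene and setting. Those with under 10 counts in any of the 4 libraries were not tested under the strictest filter, which does not bear on them. With 2 libraries a group and 9.24 M counts in each NLP2 library, differences of low-level loci are the least certain.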

Other observations

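Chloroplast and mitochondrial loci were higher in NLP2 at 106 of 115 tested and lower at 0, where 14.9% of all loci tested were higher. The shares of organellar counts and of alignments that were not unique, given above, move with the groups too. The part of either in these calls was not tested. Photosynthesis genes of the nucleus were called at 1 of 17, CA1 (-0.25 ± 0.08), or 5.88% against 28.3% of all loci tested. The call on CA1 was lost without NLP1 replicate 1, NLP1 replicate 2 or NLP2 replicate 1. It was also lost with all 24 protoplast libraries (adjusted p = 0.150).

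Clock genes were called at 4 of 12 tested (33.3%, against 28.3% of all loci tested). With the 4 libraries of the contrast alone, and with DESeq2, 2 were higher and 1 lower. CDF1, a repressor of flowering regulators, stood at 9.80 and 13.2 CPM with NLP1 and at 58.5 and 54.4 CPM with NLP2 (2.26 ± 0.13). RVE8 was higher, and FKF1 and LUX lower, by less than 0.60 in size; each of these calls was lost without NLP2 replicate 1 (adjusted p = 0.135, 0.0940 and 0.613), that on RVE8 also without NLP1 replicate 1 (0.135), and those on FKF1 and LUX also without NLP1 replicate 2 (0.0725 and 0.209) and with all 24 protoplast libraries (0.0694 and 0.187). Of 9 phosphate genes tested, 2 were higher and 2 lower (44.4% called, against 28.3% of all loci tested). PHO2, a regulator that limits phosphate uptake, was higher at 175 and 195 CPM against 88.2 and 113 CPM (0.87 ± 0.10). SPX1 was higher too (0.45 ± 0.10). The transporter gene PHT1;4 was lower at 68.4 and 78.4 CPM against 115 and 133 CPM (-0.76 ± 0.10). PHF1 was lower by -0.29, a call lost without any 1 of NLP1 replicate 2, NLP2 replicate 1 and NLP2 replicate 2. Of 6 sugar and dark starvation genes tested, 1 was higher and 1 lower (33.3% called, against 28.3% of all loci tested). TPS8, a trehalose-phosphate synthase family gene, was at 45.3 and 41.1 CPM with NLP1 and 108 and 104 CPM with NLP2 (1.30 ± 0.11), and its relative TPS11 was lower (-0.53 ± 0.11), a call lost without NLP2 replicate 1 (adjusted p = 0.0610). Of 9 sulfate genes tested 1 was at an unadjusted p under 0.05 (SULTR1;2), against 37.2% of all loci tested. None passed the adjusted threshold, with 0 called by edgeR, against 28.3% of all loci tested, and 0 by DESeq2. That count depended on single libraries: without NLP2 replicate 2, APR1, APR3 and LSU1 were lower (adjusted p = 0.0217 to 0.0319), and SULTR1;2 was higher without NLP2 replicate 1. Of 7 hypoxia genes tested, LBD41 (-1.17 ± 0.20) and PDC1 (-0.66 ± 0.14) were lower (28.6% called, against 28.3% of all loci tested), and PDC1 was not called with all 24 protoplast libraries (adjusted p = 0.0760). Of 10 listed CC-type glutaredoxin genes 2 were tested, and GRXS6 had 2 NLP1 counts and stood at 1.72 and 1.499 CPM in NLP2, a ratio of 26.8 with an exact 95% Poisson interval of 7.41 to 221 for counting error only.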
